A study of Mus musculus with 36 samples.

Results

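The genes described here are 10 feedback inhibitors and early response genes of the ERK mitogen-activated protein kinase pathway: the Sprouty genes Spry1, Spry2 and Spry4, the Sprouty-related gene Spred1, the MAP kinase phosphatase genes Dusp4 and Dusp6, the ETS transcription factor genes Etv4 and Etv5, the zinc finger transcription factor gene Egr1, and Phlda1. They are a named set, not picked by a threshold on their values but chosen with earlier results of these data known, and were matched by Ensembl identifier among 49671 counted genes. All 10 were found, and all 10 passed the filter on low counts that left 23501 genes for testing. Gene-level read counts came from 36 RNA-seq libraries of mouse pluripotent stem cells. The libraries form 18 groups of 2, labelled as biological replicates. The groups cross 3 cell lines, named for the genes Bod1L, Setd1a and Mll2 (Kmt2b in the annotation), with 2 genotypes and 3 media. Knockout (KO) groups are labelled Bod1L KO, Setd1a KO or Mll2 KO and carry the word tamoxifen in their titles, and the wild-type (WT) group of each line carries no treatment name, so deletion and tamoxifen cannot be told apart. In 2i the cells, labelled naive embryonic stem cells, had LIF with PD0325901, an inhibitor of the ERK kinase MEK, and CT99021, an inhibitor of GSK3. In EpiSC conditions, labelled epiblast-like stem cells, they had Activin A and FGF2. In FCS, labelled cycling embryonic stem cells, they had LIF and fetal calf serum. The labels name no allele, and each KO was made in 1 line, so the p-values below measure the spread between cultures of these lines.

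As background, growth factors such as FGFs bind receptor tyrosine kinases, which switch on RAS and then the kinases RAF, MEK and ERK in turn. Active ERK induces immediate early genes such as Egr1, and it also induces genes whose products damp the pathway: Sprouty and Spred proteins act upstream at the receptor and RAS, and DUSP phosphatases remove the activating phosphates from ERK itself. In mouse embryonic stem cells, ERK signalling driven by autocrine FGF4 is known to prepare cells for lineage commitment, and MEK inhibition is 1 arm of the 2i medium that holds them in the naive state. Messenger RNA of these genes is often read as a proxy of ERK output, but no protein or phosphorylation was measured here.

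The libraries held 24490158 to 40591108 counts assigned to genes, of which 1.98% to 7.71% came from mitochondrial genes. Levels are given in CPM, the usual unit of read counts divided by library size, with the size scaled by edgeR's TMM factors. The summed level of 13 naive pluripotency markers was 3738 to 6023 CPM in 2i, 277 to 1880 CPM in EpiSC conditions and 1686 to 4828 CPM in FCS, in the direction of the labels for 2i against EpiSC conditions. Bod1l itself was 33.6 to 62.2 CPM in Bod1L KO libraries, against 166 to 345 CPM in Bod1L WT libraries. Setd1a was 37.3 to 43.8 CPM in Setd1a KO libraries and 40.9 to 58.8 CPM in Setd1a WT libraries, and neither Setd1a (log2 fold change -0.38, adjusted p = 0.0957) nor Kmt2b (-0.28, adjusted p = 0.744) passed the test in its own line. A gene-level count also holds exons outside a deletion, so it is a weak check. The library labelled Mll2 WT 2i replicate 2 stood apart, with 89.6 CPM of Kmt2b against 183 CPM in its partner, 145 and 136 CPM in the Mll2 KO 2i libraries, and the lowest TMM factor of all (0.837). Column headers carry library numbers in an earlier range (23 libraries) and a later range (13 libraries). The later range holds all 12 EpiSC libraries and Setd1a KO 2i replicate 1, so EpiSC conditions and that range cannot be told apart. In bulk RNA, fewer cells of a type and less RNA per cell cannot be told apart.

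Promoter windows (250 bases before to 50 after the start) were available for 5 of the 10 genes, from RefSeq on GRCm38.p6. They are shown for Dusp6, which was lower in 2i in each of the 3 lines, and for Spry2 and Etv5, whose mean level over the WT lines was not called lower in 2i, so that a gene that fell can be set beside genes that did not pass as lower. GGAA, the core letters that ETS factors such as ETV4 and ETV5 are known to bind, is in capitals, and so is TTCC, the same letters on the other strand. The windows are chr10:99262981-99263280 on the plus strand for Dusp6, chr14:105896770-105897069 on the minus strand for Spry2 and chr16:22439521-22439820 on the minus strand for the first of 2 Etv5 starts, each written 5′ to 3′ on the gene's strand.
Dusp6: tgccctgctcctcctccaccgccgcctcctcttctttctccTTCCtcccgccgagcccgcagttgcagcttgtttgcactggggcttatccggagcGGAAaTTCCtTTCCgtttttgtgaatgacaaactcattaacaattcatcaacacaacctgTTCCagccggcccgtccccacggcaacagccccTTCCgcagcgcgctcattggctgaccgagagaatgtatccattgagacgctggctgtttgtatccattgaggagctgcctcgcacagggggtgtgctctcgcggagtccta
Spry2: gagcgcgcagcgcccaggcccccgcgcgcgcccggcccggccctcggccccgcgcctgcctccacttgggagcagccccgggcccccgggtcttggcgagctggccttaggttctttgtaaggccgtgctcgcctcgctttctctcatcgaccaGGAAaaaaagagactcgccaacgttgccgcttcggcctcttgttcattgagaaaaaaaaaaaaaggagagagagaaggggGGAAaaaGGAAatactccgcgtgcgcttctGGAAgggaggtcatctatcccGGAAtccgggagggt
Etv5: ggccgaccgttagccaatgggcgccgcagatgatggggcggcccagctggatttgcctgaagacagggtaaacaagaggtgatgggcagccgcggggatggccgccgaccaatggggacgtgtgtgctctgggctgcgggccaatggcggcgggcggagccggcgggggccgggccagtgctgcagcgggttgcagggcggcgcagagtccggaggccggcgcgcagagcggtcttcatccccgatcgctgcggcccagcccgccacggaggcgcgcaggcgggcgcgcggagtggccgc
The Dusp6 window held GGAA 1 time and TTCC 5 times, the Spry2 window held GGAA 5 times, 1 of them as CCGGAA, and the printed Etv5 window held neither. The second Etv5 start held GGAA 4 times and TTCC 2 times, the Spred1 window held them 2 and 3 times, and the Spry1 window held GGAA 1 time. Of the 32851 promoter windows in the table, 96.0% held GGAA and 14.9% held CCGGAA on either strand. The core letters of sites known to be bound by the repressor CIC, TGAATG, stood 1 time in the Dusp6 window and 3 times at the second Etv5 start, counting both strands, and in 12.7% of all windows. The 8-letter forms TGAATGAA and TGAATGGA (1.30% and 1.21% of all windows) and the cAMP response element TGACGTCA (1.79%) were in none of the windows of these 5 genes.

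In 2i, where MEK is inhibited, most of the ERK feedback and early response genes were lower than in FCS, but not all of them and not by the same amount. The media also differed in the GSK3 inhibitor, in serum and in cell state, which cannot be told apart from MEK inhibition. Egr1, Spry4, Dusp4 and Dusp6 were lower by 20.0-fold to 105-fold in WT cells, Etv4, Spred1, Phlda1 and Spry1 by 1.78-fold to 3.30-fold, and Spry2 and Etv5 did not pass the test. Of the 10 genes, 8 passed as lower and 0 as higher in WT cells (edgeR's quasi-likelihood test on the mean over the 3 lines, Benjamini-Hochberg adjusted over all 23501 genes, threshold 0.05). Among all genes tested, 13.3% were called lower and 14.5% higher. The median log2 difference of the 10 genes was -1.5, against 0.02 for all genes. In KO cells 6 were called lower and 1 higher, against 16% and 14.5% of all genes, with a median of -1.21 against -0.04. Markers of other cell states moved with this comparison. In WT cells 6 of 10 formative and primed markers were called lower in 2i than in FCS and 1 higher, 4 of 6 trophoblast markers lower and 1 higher, and 5 of 9 fibroblast or feeder markers lower and 0 higher. Over both genotypes the formative and primed sum was 161 to 447 CPM in 2i and 333 to 2076 CPM in FCS libraries, the trophoblast sum 7.21 to 170 CPM in 2i and 23.6 to 1026 CPM in FCS libraries, and the fibroblast sum 5.86 to 32.6 CPM in 2i and 16.6 to 423 CPM in FCS libraries. Fgf5 and the trophoblast factor gene Elf5 were at 0 in some 2i libraries and in no FCS library. Their part in the result was not tested.

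**Figure D1:**
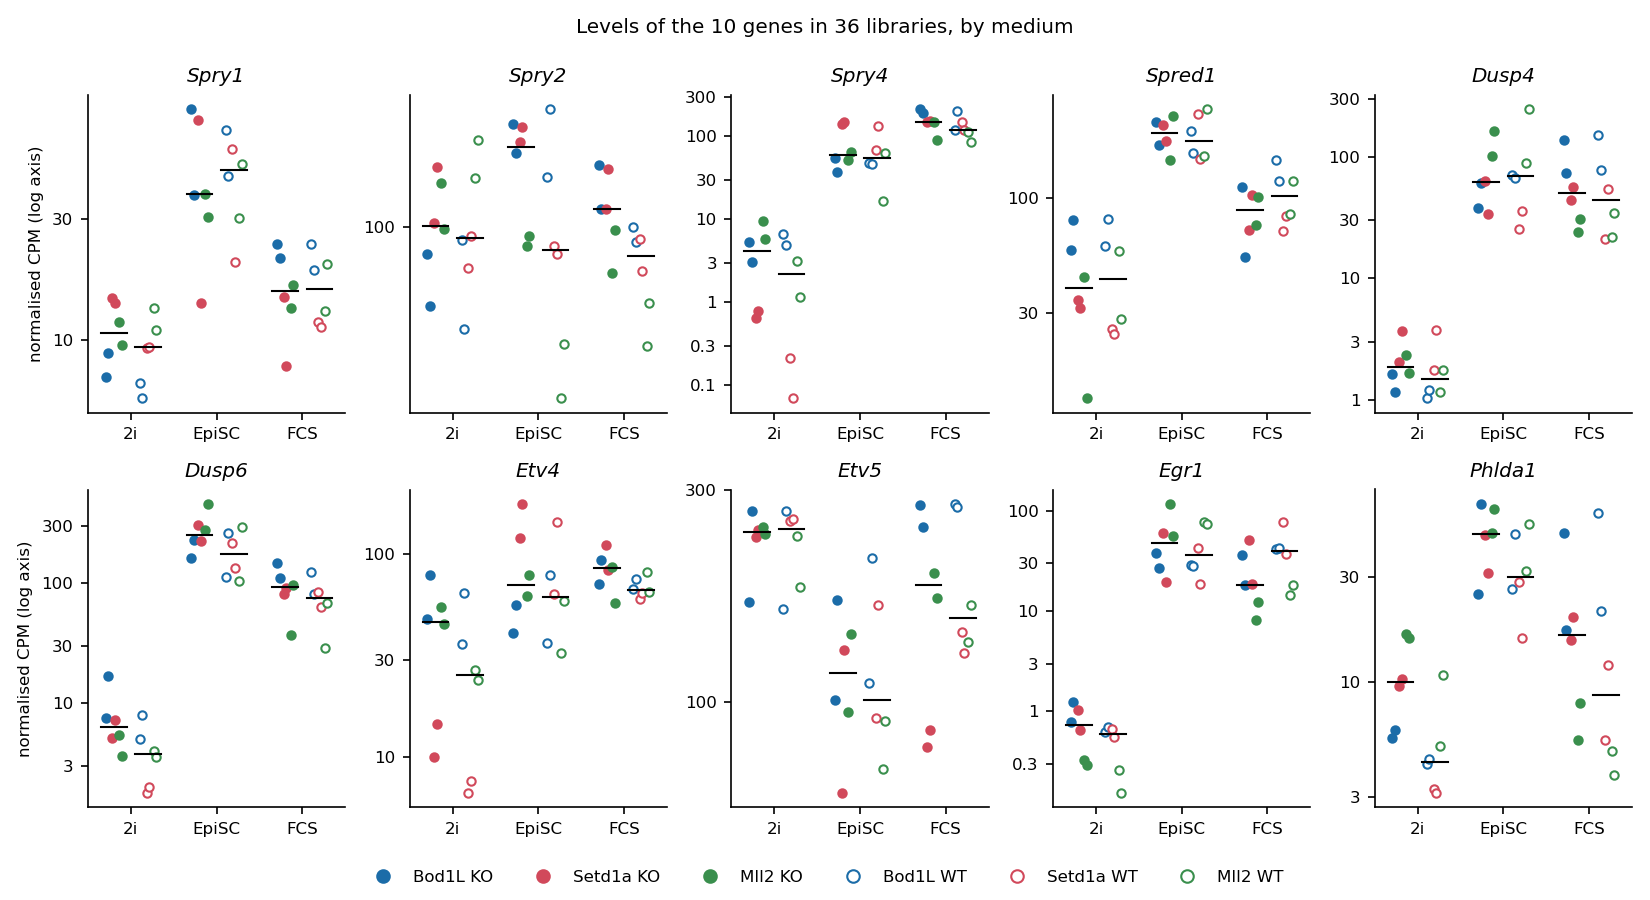
Level of each of the 10 genes in every library (normalised CPM, log axis) by medium, with KO libraries as filled and WT libraries as open points, coloured by line, and a bar at the median of 6 libraries. The 2i points of Spry4, Dusp4, Dusp6 and Egr1 all lie below the EpiSC and FCS points, whereas those of Spry2 and Etv5 lie among them.

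Spry4 (ENSMUSG00000024427, GRCm38 chromosome 18, 38586268 to 38601268) is a Sprouty gene, whose product is known to restrain receptor tyrosine kinase signalling to RAS. In WT cells its level was 0.0697 to 6.69 CPM in 2i (median 2.19) and 85.9 to 204 CPM in FCS (median 120). No 2i library reached the lowest FCS library. The log2 difference was -6.71 ± 0.37 (SE, adjusted p = 4.27e-11) in WT cells. In KO cells the level was 0.657 to 9.52 CPM in 2i (median 4.20) and 90.5 to 211 CPM in FCS (median 151), a log2 difference of -5.75 ± 0.34 (adjusted p = 1.24e-10).

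The other Sprouty genes behaved differently. Spry1 (ENSMUSG00000037211, chromosome 3, 37639947 to 37644598) was 5.90 to 13.4 CPM in WT 2i libraries (median 9.39) and 11.3 to 24.1 CPM in WT FCS libraries (median 16.0), with overlap. Its log2 difference of -0.83 ± 0.30 was close to the threshold (adjusted p = 0.0438). Of 12 single-library omissions, 11 ended this call, that of Mll2 WT 2i replicate 2 included (adjusted p = 0.0957), and adjusted p reached 0.113. Spry2 (ENSMUSG00000022114, chromosome 14, 105891949 to 105896819) was 57.9 to 159 CPM in WT 2i libraries (median 94.2) and 53.1 to 99.8 CPM in WT FCS libraries (median 85.6), and the 2 media overlapped. Its log2 difference was 0.31 ± 0.14 (adjusted p = 0.107) in WT cells and -0.13 ± 0.14 (adjusted p = 0.516) in KO cells. Spred1 (ENSMUSG00000027351, chromosome 2, 117121374 to 117182279), whose product is known to bring the RAS inactivator neurofibromin to the membrane, was 24.1 to 80.6 CPM in WT 2i libraries (median 42.7) and 70.7 to 150 CPM in WT FCS libraries (median 102). It fell by 1.28 on the log2 scale in WT cells (SE 0.26, adjusted p = 7.02e-04) and by 1.11 in KO cells (adjusted p = 0.00235), with some overlap in WT and KO cells.

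Both phosphatase genes were low in every 2i library. Dusp4 (ENSMUSG00000031530, chromosome 8, 34807297 to 34819894) encodes a nuclear MAP kinase phosphatase. It was 1.02 to 3.73 CPM in WT 2i libraries (median 1.48) and 21.1 to 152 CPM in WT FCS libraries (median 44.6). Dusp6 (ENSMUSG00000019960, chromosome 10, 99263231 to 99267488) encodes a cytoplasmic phosphatase selective for ERK. It was 1.77 to 7.87 CPM in WT 2i libraries (median 3.75) and 28.6 to 123 CPM in WT FCS libraries (median 74.3). Neither gene overlapped between these media in either genotype. The log2 difference in WT cells was -4.92 ± 0.35 for Dusp4 (adjusted p = 1.67e-09) and -4.32 ± 0.34 for Dusp6 (adjusted p = 1.13e-08). In KO cells the log2 differences were -4.72 and -3.69, both called.

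Among the transcription factor genes, Egr1 had a larger fold change than the ETS genes. Egr1 (ENSMUSG00000038418, chromosome 18, 34859823 to 34864984), an immediate early gene, was 0.154 to 0.696 CPM in WT 2i libraries (median 0.591) and 14.5 to 77.6 CPM in WT FCS libraries (median 39.5). Its log2 difference was -6.27 ± 0.39 in WT cells (adjusted p = 2.25e-10) and -5.04 ± 0.37 in KO cells (adjusted p = 2.64e-09), and no libraries of the 2 media overlapped. Etv4 (ENSMUSG00000017724, chromosome 11, 101769742 to 101785371), an ETS factor of the PEA3 group, was 6.66 to 64.2 CPM in WT 2i libraries (median 25.3) and 60.3 to 81.8 CPM in WT FCS libraries (median 66.2). It fell by 1.72 on the log2 scale in WT cells (SE 0.23, adjusted p = 9.19e-06) and by 1.30 in KO cells (adjusted p = 1.93e-04), with overlap. Its close relative Etv5 (ENSMUSG00000013089, chromosome 16, 22381309 to 22439719) did not pass as lower. Etv5 was 161 to 269 CPM in WT 2i libraries (median 246) and 129 to 279 CPM in WT FCS libraries (median 154), a log2 difference of 0.34 ± 0.21 (adjusted p = 0.235). In KO cells its log2 difference was 0.56 ± 0.21 (adjusted p = 0.0423), a call that 11 of 12 single-library omissions ended.

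Phlda1 (ENSMUSG00000020205, chromosome 10, 111506286 to 111508645), a growth-factor-induced gene for a pleckstrin homology-like domain protein, was 3.13 to 10.7 CPM in WT 2i libraries (median 4.35) and 3.79 to 58.1 CPM in WT FCS libraries (median 8.71). It fell by 1.25 on the log2 scale in WT cells (SE 0.31, adjusted p = 0.00392), and the 2 media overlapped. In KO cells the log2 difference of -0.68 ± 0.30 did not pass (adjusted p = 0.0957). Over the 10 genes, 4 had every 2i library below every FCS library in WT cells, as did 5.3% of all genes tested. The same 4, Spry4, Dusp4, Dusp6 and Egr1, did so in KO cells, against 4.54% of all genes. Without Mll2 WT 2i replicate 2, the other 7 WT calls held, with log2 differences from -1.15 for Spred1 to -6.54 for Spry4.

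Against EpiSC conditions, in which FGF2 was supplied, the differences of 2i were again uneven across the genes. Spry4, Dusp4, Dusp6 and Egr1 were 43.3-fold to 91.3-fold lower in 2i than in EpiSC conditions in WT cells, Phlda1, Spry1, Spred1 and Etv4 were 3.11-fold to 6.74-fold lower, Etv5 was 1.91-fold higher and Spry2 did not pass. Of the 10 genes, 8 were called lower and 1 higher in WT cells, against 25.1% and 27.4% of all genes tested. In KO cells 9 were called lower and 1 higher, against 25.9% and 23.5%. Cell state markers moved as well. In WT cells 9 of 9 fibroblast or feeder, 8 of 10 formative and primed and 4 of 7 mesendoderm markers were called lower in 2i, and 0 higher. Of 8 primitive endoderm markers 6 were lower and 1 higher, and of 13 naive markers 12 were higher and 0 lower. Their part in the result was not tested. This comparison shares its 2i libraries with the one against FCS. The media differed in LIF, both inhibitors, Activin A and FGF2 as well as in cell state, and these cannot be told apart.

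In WT cells Dusp6 was 1.77 to 7.87 CPM in 2i and 103 to 293 CPM in EpiSC conditions (median 173), a log2 difference of -5.70 ± 0.37 (adjusted p = 7.84e-11). Dusp4 was 25.8 to 247 CPM in WT EpiSC libraries (median 69.2), and the log2 difference of 2i against them was -5.44 ± 0.35 (adjusted p = 9.85e-11). For Egr1 the WT EpiSC level was 18.8 to 77.6 CPM (median 35.9), a log2 difference of -6.51 ± 0.39 (adjusted p = 3.03e-11). None of these 3 genes overlapped between the 2 media. Spry4 was 16.6 to 133 CPM in WT EpiSC libraries (median 55.2), with a log2 difference of -5.53 ± 0.35 (adjusted p = 7.79e-11). Phlda1, which overlapped between 2i and FCS, did not overlap here: it was 15.8 to 51.9 CPM in WT EpiSC libraries (median 29.9) and 2.75 lower in 2i on the log2 scale (adjusted p = 3.52e-07).

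Spry1 was 20.4 to 67.3 CPM in WT EpiSC libraries (median 47.0), above every WT 2i library, and 2i was lower by 2.29 on the log2 scale (adjusted p = 2.83e-06). Spred1 was 150 to 254 CPM there (median 182), also above every WT 2i library, with 2i lower by 2.20 (adjusted p = 5.47e-07). In all, 7 of the 10 genes had every WT 2i library below every WT EpiSC library, as did 10.2% of all genes. In KO cells 6 did, against 9.48%. Etv5 went the other way. It was higher in 2i, with medians of 246 CPM in WT 2i libraries and 101 CPM in WT EpiSC libraries (log2 difference 0.93 ± 0.21, adjusted p = 6.62e-04), and in KO cells the log2 difference was 1.01 ± 0.21 (adjusted p = 3.26e-04). Spry2 had a log2 difference of -0.42 ± 0.14 in KO cells (adjusted p = 0.0186) and 0.18 ± 0.14 in WT cells (adjusted p = 0.302). The KO call was lost without any 1 of 3 libraries, Bod1L KO 2i replicate 2, Mll2 KO 2i replicate 2 or Setd1a KO 2i replicate 1 (adjusted p 0.0659 to 0.0685).

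**Figure D2:**
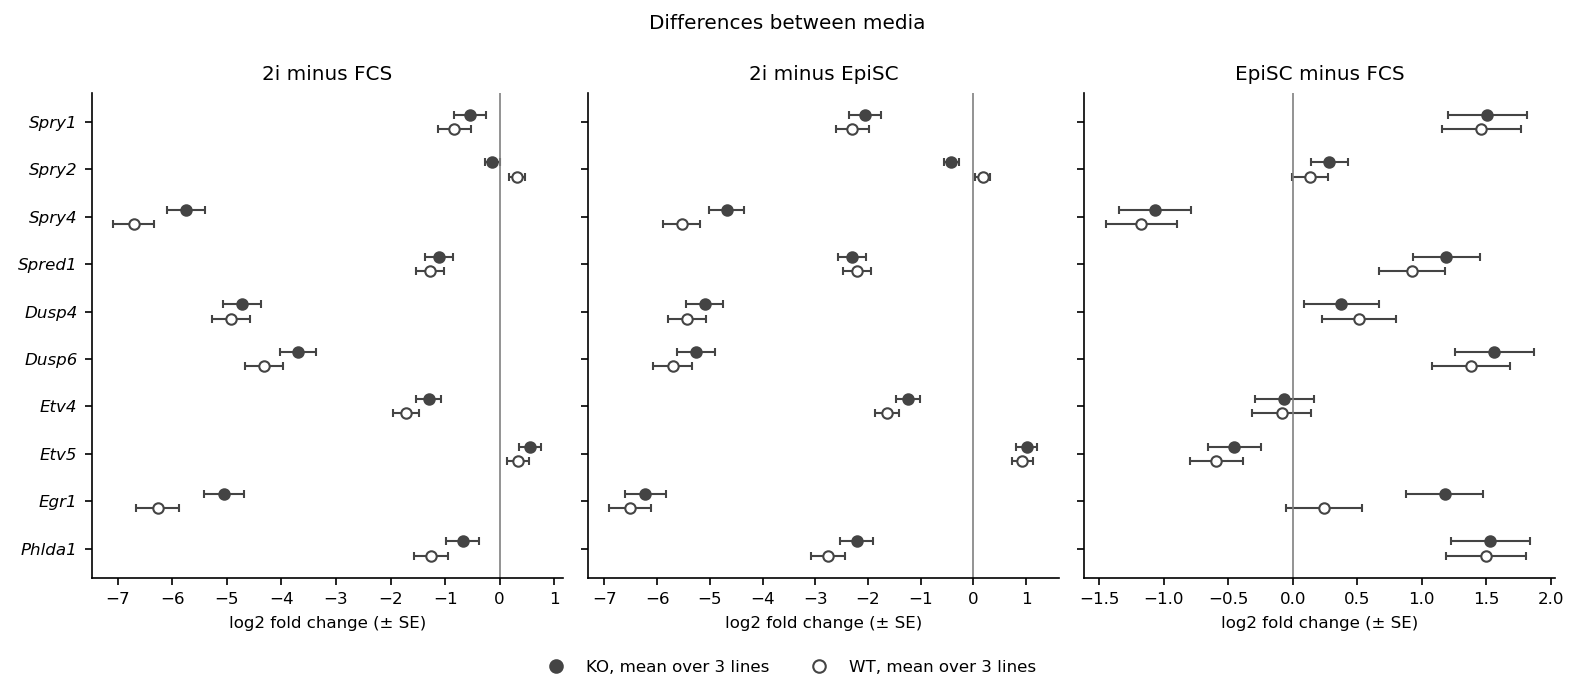
Log2 fold change (± SE) between media for each of the 10 genes, as the mean over the 3 lines, in KO cells (filled) and WT cells (open). Spry4, Dusp4, Dusp6 and Egr1 lie between -6.71 and -3.69 in the 2i comparisons, and Spry2 and Etv5 between -0.42 and 1.01.

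Between the media without MEK or GSK3 inhibitor, the differences were smaller and went both ways. In WT cells Phlda1, Spry1, Dusp6 and Spred1 were 1.90-fold to 2.83-fold higher in EpiSC conditions than in FCS, and Spry4 and Etv5 were 2.26-fold and 1.51-fold lower. That makes 4 genes called higher and 2 lower, against 20.4% and 20.6% of all genes tested. In KO cells 5 were called higher and 1 lower, against 22.6% and 21.3%. The median log2 difference of the 10 genes was 0.78 in KO cells and 0.38 in WT cells, beside 0.01 and -0.01 for all genes.

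Spred1, at 150 to 254 CPM in WT EpiSC libraries and 70.7 to 150 CPM in WT FCS libraries, was the 1 gene of the 10 without overlap in WT cells, and 5.82% of all genes were higher without overlap. Its log2 difference was 0.93 ± 0.26 (adjusted p = 0.00622). In KO cells Spred1 and Dusp6 were higher without overlap, against 6.09% of all genes. Dusp6 was 162 to 456 CPM in KO EpiSC libraries (median 253) and 36.8 to 146 CPM in KO FCS libraries (median 93.3). Its log2 difference was 1.56 ± 0.30 in KO cells (adjusted p = 2.85e-04) and 1.38 ± 0.30 in WT cells (adjusted p = 9.01e-04). Both genes encode brakes on the cascade. Of the other brake genes among the 10, in WT cells Spry1 was called higher in EpiSC conditions, Spry4 lower, and Spry2 and Dusp4 neither. A part of FGF2 in these differences was not tested.

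Spry1 had a log2 difference of 1.46 ± 0.31 in WT cells (adjusted p = 6.01e-04) and Phlda1 of 1.5 ± 0.31 (adjusted p = 5.32e-04). Spry4 differed in sign from Spry1: its log2 difference was -1.17 ± 0.28 in WT cells (adjusted p = 0.0018) and -1.07 ± 0.28 in KO cells (adjusted p = 0.0035). Egr1 was called in KO cells (1.18 ± 0.30, adjusted p = 0.00293) and not in WT cells (0.24 ± 0.29, adjusted p = 0.547). The difference between those genotypes was not tested for this pair of media. Etv5 was lower by 0.59 on the log2 scale in WT cells (adjusted p = 0.0245), a call that 7 of 12 single-library omissions ended (adjusted p up to 0.0942).

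Markers of fibroblasts or feeder cells also moved with the EpiSC comparison. Of 9 such markers, 8 were called higher in EpiSC conditions than in FCS in WT cells, and their summed level was 174 to 6951 CPM in EpiSC libraries and 16.6 to 423 CPM in FCS libraries, beside 5.86 to 32.6 CPM in 2i libraries. None of the 9 was at 0 in any EpiSC library, whereas Col3a1, Postn, Dcn, Lum and Acta2 were at 0 in some 2i libraries. The sum was highest in Bod1L WT EpiSC replicate 1 (6951 CPM) and Bod1L KO EpiSC replicate 1 (5380 CPM). Without the WT library, Spry1 (1.35), Spred1 (0.87), Dusp6 (1.54), Phlda1 (1.62) and Spry4 (-1.18) kept their calls, and Etv5 (-0.46) lost its call (adjusted p = 0.0942). Without the KO library, the 6 KO calls held. The 4 Mll2 EpiSC libraries had summed levels of 199 and 213 CPM in KO cells and 174 and 181 CPM in WT cells, among the 6 lowest EpiSC sums. The part of these markers in the differences was not tested.

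The medium differences were not equal in size across the 3 lines. Whether a gene's difference differed among lines was asked with an F test added after the data had been seen. For EpiSC conditions against FCS, Dusp4 (adjusted p = 0.0184), Egr1 (0.0297) and Phlda1 (0.0359) passed in WT cells, where 2.89% of all genes did. In KO cells Dusp4 (0.0231) and Egr1 (0.0367) passed, where 2.75% of all genes did. In each case the Mll2 line had the largest rise. The EpiSC libraries of that line also differed in markers. Summed mesendoderm markers were 243 to 922 CPM in Mll2 EpiSC libraries and 11.0 to 54.3 CPM in EpiSC libraries of the other lines. Summed trophoblast markers were 599 to 1308 CPM and 61.8 to 446 CPM. Their part in these differences was not tested.

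Dusp4 was 103 and 164 CPM in Mll2 KO EpiSC libraries and 24.2 and 30.7 CPM in Mll2 KO FCS libraries. In the Mll2 WT line it was 89.9 and 247 CPM in EpiSC conditions and 22.1 and 34.6 CPM in FCS. The log2 differences of 2.28 in KO and 2.57 in WT cells compare with -1.11 and -0.74 in the Bod1L line, where FCS levels were 139 and 74.0 CPM in KO and 152 and 78.5 CPM in WT cells. In the Setd1a line Dusp4 differed by -0.04 in KO and -0.29 in WT cells. Mll2 cells thus had the lowest mean Dusp4 level of the 3 lines in FCS and the highest in EpiSC conditions, in both genotypes.

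Egr1 was 117 and 56.8 CPM in Mll2 KO EpiSC libraries, against 8.16 and 12.4 CPM in Mll2 KO FCS libraries. Mll2 WT libraries had 77.6 and 73.6 CPM in EpiSC conditions and 14.5 and 18.3 CPM in FCS. The log2 differences were 3.08 in KO and 2.20 in WT cells, beside 0.26 and -0.58 in the Bod1L line and 0.19 and -0.89 in the Setd1a line. Phlda1 differed by 3.00 in Mll2 KO and 3.27 in Mll2 WT cells, by 1.13 and 1.34 in the Setd1a line, and by 0.46 and -0.11 in the Bod1L line. These calls lost their threshold when some single libraries were left out: Dusp4 without 3 of 12 in WT and 5 of 12 in KO cells, Egr1 without 7 and 6, and Phlda1 without 5.

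In 2i against FCS, Spry4 passed the same test in WT cells (adjusted p = 0.0402), where 0.0553% of all genes, or 13, did. In KO cells Etv4 (0.0324), Spry4 (0.0374) and Phlda1 (0.0413) passed, where 0.906% of all genes did. For Spry4 and Etv4 the Setd1a line had the widest difference. Spry4 was 0.657 and 0.785 CPM in Setd1a KO and 0.214 and 0.0697 CPM in Setd1a WT 2i libraries. In the Bod1L line it was 5.34 and 3.06 CPM in KO and 6.69 and 4.90 CPM in WT 2i libraries, and in the Mll2 line 9.52 and 5.85 CPM in KO and 3.20 and 1.17 CPM in WT. Setd1a WT 2i libraries held 9 Spry4 counts in all, so that the FCS over 2i ratio of 917 has a 95% counting interval of 483 to 2007. The ratio in Bod1L WT cells was 27.4 and in Mll2 WT cells 51.9, and in Setd1a KO cells it was 223. These intervals cover counting error only.

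Etv4 in 2i was 10.0 and 14.6 CPM in Setd1a KO and 6.66 and 7.63 CPM in Setd1a WT libraries, and every 2i library of the other lines was higher, at 23.9 to 78.6 CPM. Its log2 difference from FCS was -2.99 in Setd1a KO and -3.12 in Setd1a WT cells. The Bod1L line had -0.39 in KO and -0.50 in WT cells, and the Mll2 line -0.53 and -1.54. For Phlda1 the sign of the difference was not the same in all lines, although its positive values in the Mll2 line did not pass by themselves. It was 16.4 and 15.8 CPM in Mll2 KO 2i libraries and 5.42 and 8.03 CPM in Mll2 KO FCS libraries (log2 difference 1.26, adjusted p = 0.139), whereas in Bod1L KO cells it was 5.57 and 6.03 CPM in 2i and 47.4 and 17.1 CPM in FCS (-2.47, adjusted p = 0.00568). The WT cells of the same lines had 0.87 (adjusted p = 0.304) and -3.18 (adjusted p = 8.78e-04). Leaving out single libraries ended these calls often: without 8 of 12 for Spry4 in WT cells, and without 9 for Spry4, 8 for Etv4 and 11 for Phlda1 in KO cells.

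**Figure D3:**
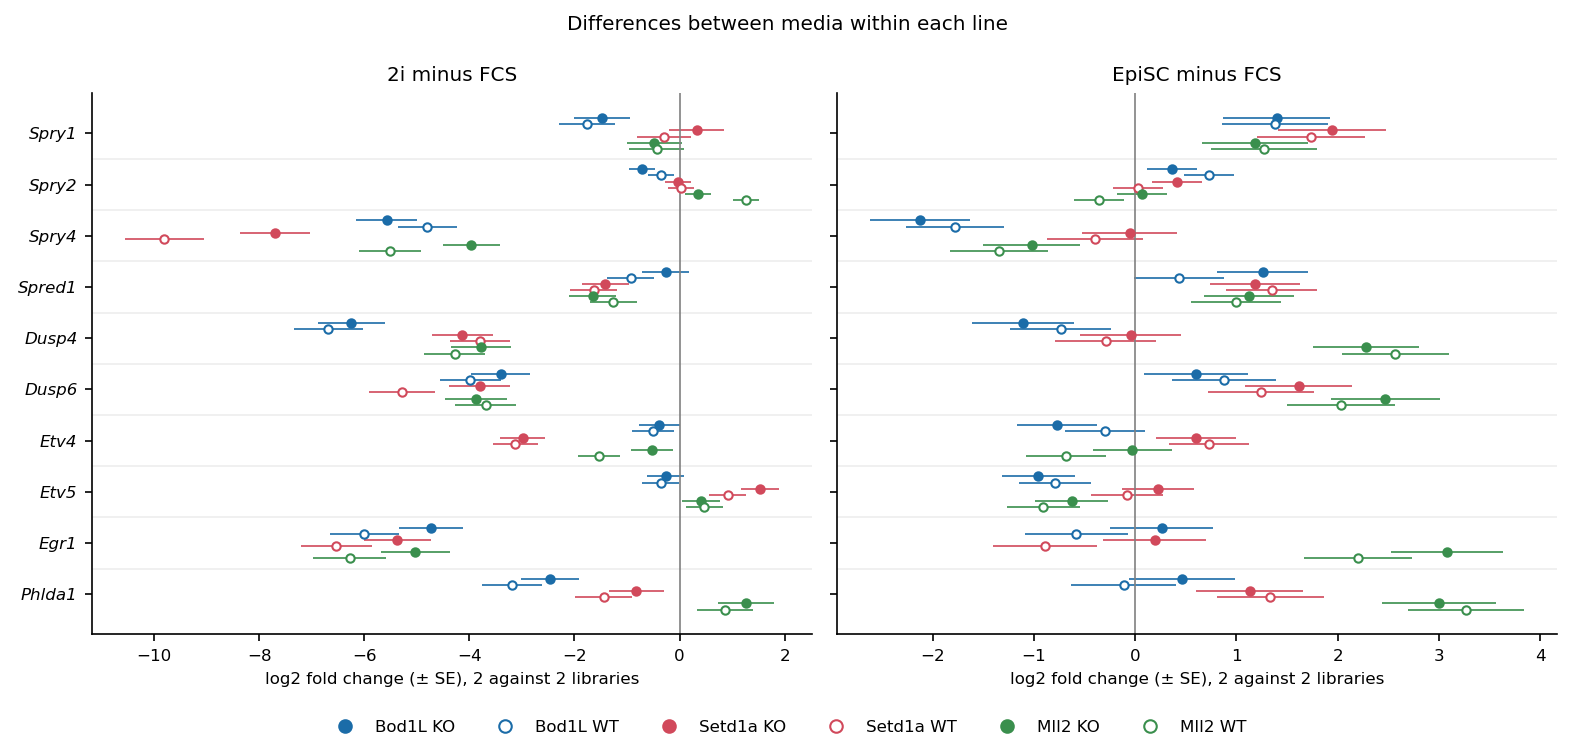
Log2 fold change (± SE) between media within each line, 2 against 2 libraries, in KO (filled) and WT (open) cells. For EpiSC conditions minus FCS, the Mll2 points of Dusp4, Egr1 and Phlda1 lie between 2.20 and 3.27, to the right of the other lines, and for 2i minus FCS the Setd1a points of Spry4 (-7.70 and -9.81) and Etv4 (-2.99 and -3.12) lie to the left.

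Counting each line and genotype by itself (6 comparisons a gene), Spry4, Dusp4, Dusp6 and Egr1 were called lower in 2i than in FCS in 6 of 6, Etv4 in 3, Spred1 and Phlda1 in 2 each and Spry1 in 1. Spry2 and Etv5 were called lower in 0 and higher in 1 each, Spry2 in Mll2 WT and Etv5 in Setd1a KO cells. There 6.37% and 5.06% of all genes were called higher. Among all genes, 6.21% were called lower in Bod1L KO and 6.22% in Bod1L WT cells, 3.05% in Setd1a KO and 2.35% in Setd1a WT cells, and 6.21% in Mll2 KO and 5.86% in Mll2 WT cells. Against EpiSC conditions, Spry1, Spry4, Spred1, Dusp4, Dusp6, Egr1 and Phlda1 were called lower in 2i in 6 of 6, Spry2 and Etv4 in 2 each and Etv5 in 0. The shares of all genes called lower were 16.4% in Bod1L KO and 15.2% in Bod1L WT cells, 9.66% in Setd1a KO and 7.3% in Setd1a WT cells, and 14.5% in Mll2 KO and 18% in Mll2 WT cells. Etv5 was called higher in 3, in Setd1a KO, Mll2 KO and Mll2 WT cells, and Spry2 in 1, in Mll2 WT cells. In these groups 6.48%, 12.6% and 20.9% of all genes were called higher.

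The WT lines themselves differed in 3 of the 10 genes on the average of the media (F test among lines): Spry4 (adjusted p = 0.0072), Phlda1 (0.0347) and Spry2 (0.0485), where 14.7% of all genes passed. Between pairs of lines, Spry4 was higher in Bod1L WT than in Setd1a WT cells by 1.49 on the log2 scale (adjusted p = 0.00392), Phlda1 by 1.12 (0.019) and Etv4 by 0.72 (0.0412), where 4.66% of all genes were higher. Spry2 was higher in Bod1L WT than in Mll2 WT cells by 0.50 (0.0436), as were 2.17% of all genes. Of 18 single-library omissions, 13 ended the Spry2 call among lines and 8 ended the Phlda1 call.

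The number of these genes called between KO and WT cells depended on whether same-numbered libraries were treated as pairs. On the average of the media, Setd1a KO had 2 genes called without pairing and 6 with pairs as a block, Mll2 KO had 0 and 6, and Bod1L KO had 0 and 1. The share of all genes called rose as well, from 8.85% to 26% for Setd1a KO, from 0.694% to 7.2% for Mll2 KO and from 2.03% to 6.17% for Bod1L KO. BOD1L, SETD1A and MLL2 belong to or associate with complexes that methylate histone H3 at lysine 4, a mark of active promoters. The 2 genes of the unpaired Setd1a comparison were Spry2 and Phlda1, both higher in KO cells, where 3.29% of all genes were called higher and 5.57% lower.

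Spry2 in 2i was 102 and 138 CPM in Setd1a KO cells and 80.2 and 95.4 CPM in Setd1a WT cells. In EpiSC conditions it was 157 and 171 CPM in KO cells and 90.4 and 86.4 CPM in WT cells, and in FCS 110 and 136 CPM in KO cells and 93.9 and 79.0 CPM in WT cells. KO libraries were thus above both WT libraries in each medium, and over all media Spry2 averaged 136 ± 26.4 CPM in KO and 87.5 ± 6.89 CPM in WT cells (SD, n = 6 each). The log2 difference was 0.62 ± 0.14 (SE, adjusted p = 0.00724 by edgeR), higher in 6 of 6 same-numbered pairs, and it stayed called without each of the 12 libraries in turn.

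Phlda1 in 2i was 9.57 and 10.3 CPM in Setd1a KO cells and 3.27 and 3.13 CPM in Setd1a WT cells. In EpiSC conditions it was 46.1 and 31.1 CPM in KO cells and 28.3 and 15.8 CPM in WT cells, and in FCS 15.4 and 19.7 CPM in KO cells and 5.46 and 12.0 CPM in WT cells. Every KO library again lay above both WT libraries of its medium. The means were 22.0 ± 14.2 CPM in KO and 11.3 ± 9.73 CPM in WT cells (SD over the 3 media, n = 6 each), and the log2 difference was 1.15 ± 0.31 (adjusted p = 0.0198), higher in 6 of 6 pairs. Omitting a single library ended this call in 6 of 12 cases, where adjusted p lay between 0.0531 and 0.0743: Setd1a WT 2i replicates 1 and 2, KO EpiSC replicate 1, WT EpiSC replicate 2, KO FCS replicate 2 and WT FCS replicate 1. Without Setd1a KO 2i replicate 1, the library of the later number range, Spry2 had 0.69 (adjusted p = 0.00679) and Phlda1 1.18 (0.0399).

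The remaining Setd1a differences missed the threshold, at 0.99 for Spry4 (adjusted p = 0.0748), 0.65 for Etv4 (0.0824), 0.85 for Dusp6 (0.0888) and -0.41 for Etv5 (0.233). Same-numbered KO and WT libraries deviated together, and with these pairs as a block 6 genes were called, against 26% of all genes: Spry2 and Phlda1, then Dusp6 (0.86, adjusted p = 1.4e-04), Etv4 (0.67, 4.14e-04), Etv5 (-0.42, 0.00331) and Spry4 (1.02, 0.0108). DESeq2 called Spry4, Dusp6 and Etv4 beside the first pair (adjusted p 0.0216 to 0.0356). Within single media 0 genes passed in the Setd1a line by edgeR, with 3, 1 and 0 at an unadjusted p under 0.05 in 2i, EpiSC conditions and FCS, and DESeq2 called 3, 1 and 0. Among all genes edgeR called 1.69% in 2i, 1.54% in EpiSC conditions and 0.762% in FCS. Of all 23501 genes, 3057, 2876 and 1543 had an unadjusted p under 0.05 in these media by edgeR. With the block, the 2i calls were Dusp6 (1.70, adjusted p = 3.67e-04), Phlda1 (1.63, 8.28e-04), Etv4 (0.76, 0.0259) and Spry4 (2.29, 0.0425), against 12.4% of all genes. In EpiSC conditions they were Spry2 (0.89, 0.00848) and Phlda1 (0.84, 0.0401), against 11.9%, and in FCS Etv5 (-0.72, 0.0193) and Phlda1 (1.10, 0.0224), against 3.91%. Mitochondrial counts moved with the genotype in 2i, at 7.32% and 7.71% in Setd1a KO libraries and 4.11% and 3.43% in Setd1a WT libraries, and in EpiSC conditions, at 6.27% and 3.89% in KO and 3.42% and 1.98% in WT libraries. So did the summed fibroblast markers in 2i, at 26.6 to 32.6 CPM in KO and 9.41 to 11.2 CPM in WT libraries. Their part in the result was not tested.

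In the Bod1L line, on the average of the media, 0 of the 10 genes passed (edgeR and DESeq2), and edgeR called 2.03% of all genes. An unadjusted p under 0.05 by edgeR was found for 0 of the 10 genes and for 1923 of all 23501. The log2 differences ran from -0.20 for Spred1 to 0.43 for Dusp6. Dusp6 was 7.54 and 16.7 CPM in Bod1L KO and 5.04 and 7.87 CPM in Bod1L WT 2i libraries, 162 and 228 CPM in KO and 113 and 261 CPM in WT EpiSC libraries, and 146 and 111 CPM in KO and 123 and 80.3 CPM in WT FCS libraries. It was higher in 5 of 6 pairs. With the pairs as a block its difference of 0.45 passed (adjusted p = 0.0453), where 6.17% of all genes were called. The 95% interval of the difference for Egr1 in the Bod1L line ran from -0.54 to 0.66.

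In the Mll2 line, on the average of the media, edgeR and DESeq2 each called 0 of the 10 genes, and edgeR called 0.694% of all genes. Within single media edgeR called 0, and DESeq2 called 1 in 2i and 1 in EpiSC conditions. Among all genes edgeR called 0.464% in 2i and 0% in EpiSC conditions and in FCS, so 0 of 10 is near the share of all genes. Shares of all genes are given for edgeR only. On the average, 1980 of all 23501 genes had an unadjusted p under 0.05 by edgeR, as did 4 of the 10. Those 4 were all higher in KO cells: Spry4 (log2 difference 0.88 ± 0.28, adjusted p = 0.222), Spry2 (0.40, 0.336), Etv4 (0.52, 0.504) and Phlda1 (0.68, 0.527). Spry4, Dusp6, Etv5 and Phlda1 were each higher in KO cells in 6 of 6 pairs, and Spred1 was lower in 6 of 6. The share of all genes with such pairs was not counted. With the pairs as a block 6 genes were called, all higher, against 7.2% of all genes: Spry4 (0.99, adjusted p = 0.00254), Phlda1 (0.71, 0.00658), Etv4 (0.53, 0.00736), Dusp6 (0.57, 0.0121), Etv5 (0.35, 0.0309) and Spry2 (0.40, 0.046). Within 2i the block called Spry4 (1.89, 0.00274), Etv4 (0.97, 0.00581), Phlda1 (1.11, 0.0145) and Spred1 (-0.79, 0.025), against 6.96% of all genes. Within EpiSC conditions it called Spry2 (1.00, 0.0141) and Dusp6 (1.03, 0.0182), against 2.16%.

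The Mll2 2i values rest in part on the library that stood apart. Spry4 in 2i was 9.52 and 5.85 CPM in Mll2 KO cells and 3.20 and 1.17 CPM in Mll2 WT cells, and 1.17 CPM is the value of Mll2 WT 2i replicate 2. The log2 difference was 1.81 with all libraries (adjusted p = 0.167). It was 1.28 without Mll2 WT 2i replicate 2 (adjusted p = 1) and 2.79 without Mll2 WT 2i replicate 1 (adjusted p = 0.0193).

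**Figure D4:**
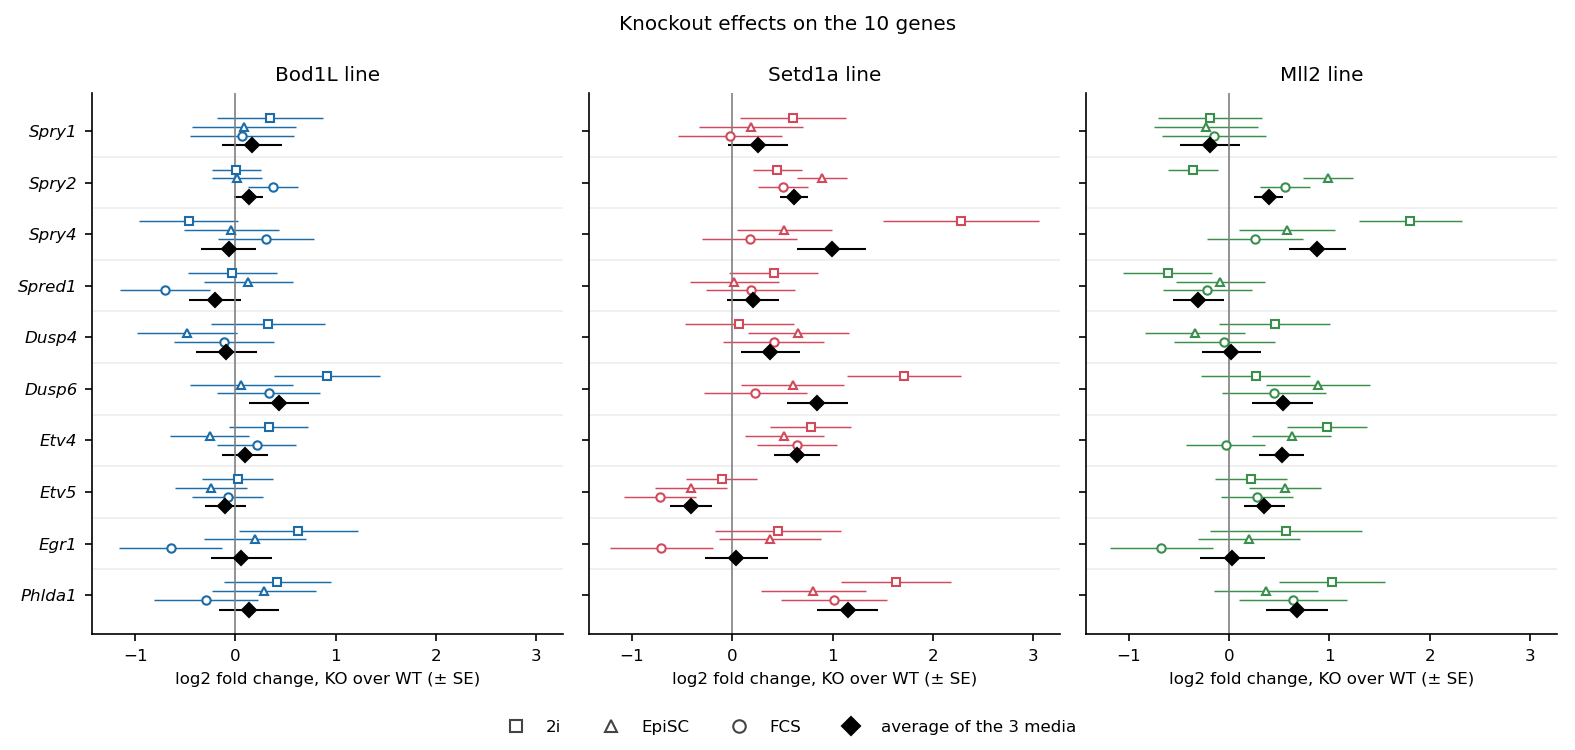
Log2 fold change of KO over WT cells (± SE) for each gene in each line, within each medium (open symbols, 2 against 2 libraries) and as the average of the 3 media (black diamonds). In the Setd1a line the diamonds of Spry2 (0.62) and Phlda1 (1.15) are the ones that passed, and the Bod1L diamonds lie between -0.20 and 0.43.

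Differences between the knockouts were tested directly. The Bod1L effect minus the Setd1a effect was called for 0 of the 10 genes by edgeR and by DESeq2, and edgeR called 0.00426% of all genes. An unadjusted p under 0.05 by edgeR was found for 1204 of all 23501 genes and for 3 of the 10: Spry2 (-0.48, 95% interval -0.88 to -0.09), Spry4 (-1.06, -1.93 to -0.19) and Phlda1 (-1.02, -1.86 to -0.17). With the pairs as a block Phlda1 was called (-1.09, adjusted p = 0.0281), against 0.762% of all genes. The difference of 2i from FCS was also compared between KO and WT cells over all lines. Again 0 of the 10 genes were called by either tool, and edgeR called 0% of all genes. Of the 10, 3 had an unadjusted p under 0.05 by edgeR, as did 1274 of all 23501 genes. Whether a knockout effect differed between media was called for 0 of the 10 genes in each line by edgeR and DESeq2. Only 1 of them had an unadjusted p under 0.05 by edgeR, in the Mll2 line, where 798 of all 23501 genes did. Among all genes edgeR called 0% in the Bod1L and Setd1a lines and 0.00426% in the Mll2 line. With the block it was called for Spry2 in the Mll2 line (adjusted p = 0.0415), where 1.61% of all genes were.

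Other genes of the pathway were read from 9 lists, of which 122 of 124 genes were tested. In WT cells 32 of these were called lower in 2i than in FCS and 15 higher, where 13.3% and 14.5% of all genes were. Against EpiSC conditions 60 were lower in 2i and 17 higher, where 25.1% and 27.4% of all genes were. The counts were uneven between roles. Among 22 other immediate early genes, 14 were lower in 2i than in FCS and 0 higher (median log2 difference -1.57), and 18 were lower than in EpiSC conditions (median -2.38). In KO cells the counts were 13 and 18. Fosl1, an AP-1 subunit gene, was 0.110 ± 0.151 CPM in WT 2i and 2.31 ± 2.02 CPM in WT FCS libraries (SD, n = 6 each; log2 difference -4.88, adjusted p = 1.40e-05). Egr3, a relative of Egr1, had 0 counts in the 6 WT 2i libraries, which places it at least 24.6-fold lower than in FCS and at least 91.7-fold lower than in EpiSC conditions, taking 3 counts over the group as the floor.

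The lists of upstream genes had calls in both directions. Of 17 genes of the RAS, RAF, MEK and ERK cascade, 4 were higher in 2i than in FCS in WT cells and 0 lower, among them Mras (log2 difference 2.06), Ksr1, a scaffold of the cascade (1.83), and Map2k2, the gene of MEK2 (0.46). Map2k2 was 74.6 and 174 CPM in the Mll2 WT 2i libraries and at most 90.0 CPM in every other 2i library. In KO cells the balance differed, with 2 of the 17 higher and 5 lower, where 14.5% and 16% of all genes were. Mapk3 was at -0.88 there. The receptor and later counts are again for WT cells. Of 12 receptor genes 5 were lower and 1 higher, with Egfr at -2.34, Met at -2.14 and Fgfr2 at -1.95. Of 9 FGF ligand genes 3 were lower and 1 higher. Fgf5, a formative epiblast marker, was 0.166 ± 0.145 CPM in WT 2i and 8.85 ± 7.84 CPM in WT FCS libraries (SD, n = 6 each; log2 difference -6.00, adjusted p = 1.25e-06), followed by Fgf15 (-4.08) and Fgf17 (-2.60). Of 20 other feedback and brake genes 4 were lower and 2 higher, with Dusp8 at -2.46, Dusp2 at -1.55 and Dusp14 at 1.67. Among other ETS factors, SRF partners and CIC, Ets1 was lower (-2.88), and the repressor genes Erf (0.87) and Cic (0.71) were higher. Delayed response genes split evenly, at 3 lower and 3 higher of 13, with Plaur at -3.17 and Phlda2, a relative of Phlda1, at -3.15.

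Between EpiSC conditions and FCS in WT cells, 40 of the 122 genes were called higher and 10 lower, where 20.4% and 20.6% of all genes were. The genes named for this comparison were chosen after their values were seen, from the 3 largest changes of each list. Of the 22 other immediate early genes 10 were called higher, such as Atf3 (log2 difference 2.16) and Egr2 (2.13), and 1 lower. Of the 20 other feedback genes 7 were higher and 0 lower. Among those 7 were Il17rd, a membrane inhibitor of FGF signalling (1.57), and Spred3, a paralogue of Spred1 (1.35). Of 12 receptor genes 6 were higher and 1 lower, and Fgfr1 was 259 ± 74.7 CPM in WT EpiSC and 98.4 ± 23.4 CPM in WT FCS libraries (SD, n = 6 each; 1.38, adjusted p = 8.94e-07). Of 9 FGF ligand genes 2 were higher, Fgf8 (3.32, adjusted p = 3.46e-04) and Fgf5 (2.46, adjusted p = 5.25e-04), and 3 were lower, with Fgf4 at -2.29 (adjusted p = 0.00414).

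**Figure D5:**
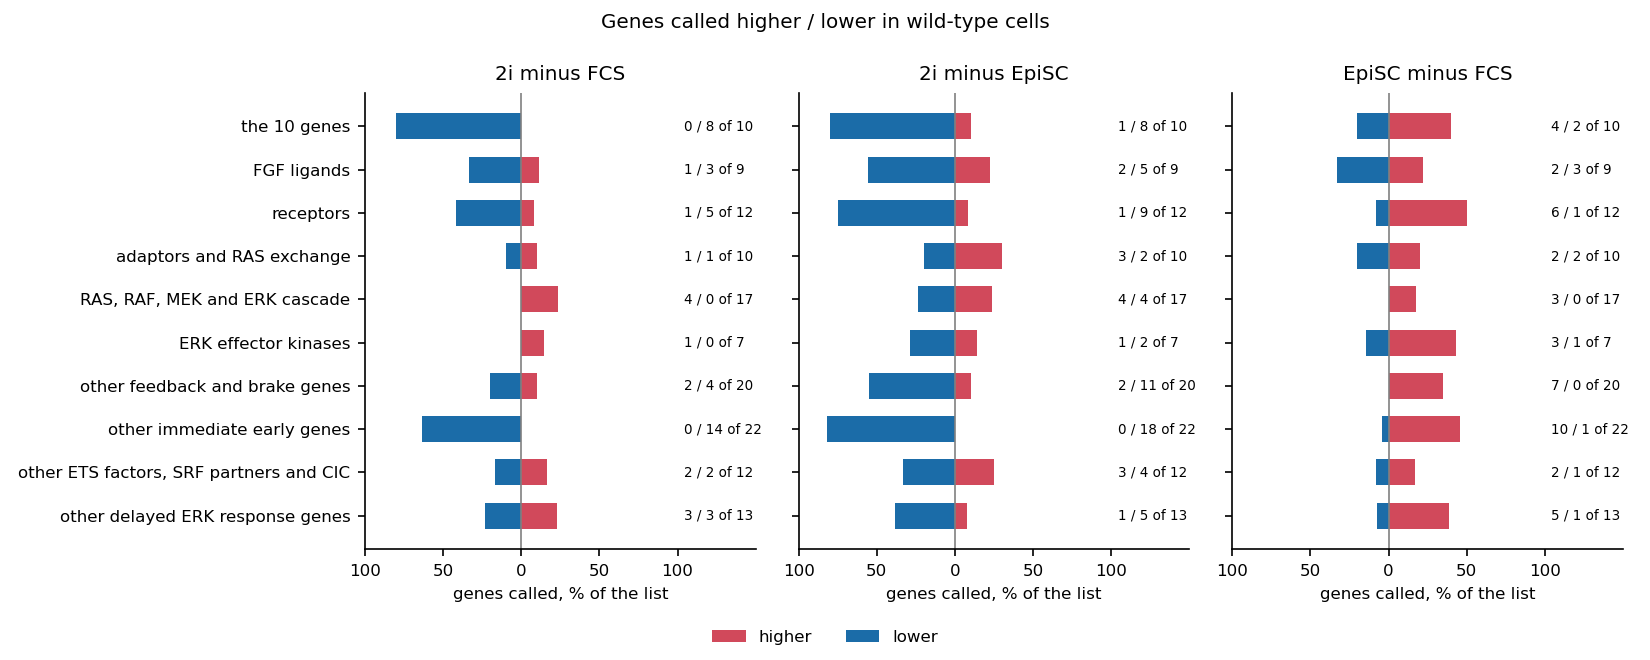
Percentage of each list called higher (right of 0) or lower (left of 0) in WT cells for the 3 medium comparisons, with the counts as higher / lower of tested. The 10 genes (8 of 10 lower in 2i than in FCS) and the other immediate early genes (14 of 22) have the longest bars to the left in both 2i comparisons.

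In the knockouts, 7 of the 122 pathway genes were called in the Setd1a line, 1 in the Bod1L line and 0 in the Mll2 line on the average of the media. Of the 7, 5 were higher and 2 lower in KO cells, where 3.29% and 5.57% of all genes were, and the Bod1L count stands beside 2.03% of all genes. Nothing particular to the pathway is read from these counts. Mapk3, the gene of ERK1, was 39.5 ± 12.9 CPM in Setd1a KO and 62.8 ± 16.1 CPM in Setd1a WT cells (SD over the 3 media, n = 6 each; log2 difference -0.71, adjusted p = 0.00259). Map2k1, the gene of MEK1, also fell (-0.40, adjusted p = 0.0239). The 5 that rose were the immediate early genes Btg2 (1.03, 5.45e-04) and Jun (0.85, 0.0332), the receptor gene Egfr (1.54, 0.0296), the phosphatase gene Dusp8 (1.24, 0.0416) and the ligand gene Fgf1 (2.02, 0.0441). In the Bod1L line Btg2 rose (0.70, 0.0401).

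Per kilobase of gene model (FPKM from the same scaled counts), the order of mean levels in WT cells changed with the medium. In 2i, Etv5 (55.3 ± 10.9 FPKM, SD, n = 6) and Spry2 (49.2 ± 17.4 FPKM) were highest and within 1 SD of each other. Etv4 (8.87 ± 6.85 FPKM), Spred1 (6.78 ± 3.46 FPKM), Spry1 (3.21 ± 0.946 FPKM) and Phlda1 (2.34 ± 1.28 FPKM) followed with overlapping spreads, then Dusp6 (1.44), Dusp4 (0.646), Spry4 (0.590) and Egr1 (0.110). In EpiSC conditions Dusp6 was highest (66.6 ± 29.0 FPKM), then Spry2 (47.0 ± 25.8 FPKM), Dusp4 (32.7 ± 29.4 FPKM), Etv5 (30.0 ± 13.1 FPKM), Spred1 (28.6 ± 6.74 FPKM) and Etv4 (22.2 ± 12.9 FPKM), again with each neighbour inside the spread of the next. Spry1 (15.4), Phlda1 (15.2), Spry4 (13.7) and Egr1 (10.0 FPKM) ended that order. In FCS the levels lay closer together, from Etv5 (45.8 ± 17.0 FPKM) through Spry2 (38.7), Spry4 (28.8), Dusp6 (26.7), Etv4 (22.2), Dusp4 (22.1), Spred1 (15.4), Egr1 (8.63) and Phlda1 (7.94) to Spry1 (5.68 ± 1.80 FPKM).

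Over the 36 libraries, the 45 pairs of the 10 genes had Pearson correlations of log2 CPM from -0.60 to 0.94 (median 0.58), and 25 pairs exceeded 0.5. Within a medium (12 libraries) the median was -0.03 in 2i, 0.12 in EpiSC conditions and 0.32 in FCS. The pooled values include the difference between media, and libraries of a line share that line. Among 12219 other genes with a mean of at least 5 CPM, those whose mean log2 CPM over the 18 groups followed the average standardised profile of the 10 genes most closely were Zfp423 (r = 0.97), Thbs1 (0.97), Stard13 (0.96), Zyx (0.96) and Has2 (0.95). Zfp423 averaged 5.15 CPM in 2i, 37.5 CPM in EpiSC and 21.2 CPM in FCS libraries, and Thbs1 1.20, 736 and 108 CPM. Stard13 averaged 0.636 CPM in 2i, 11.8 CPM in EpiSC and 5.56 CPM in FCS libraries, Zyx 6.86, 112 and 46.6 CPM, and Has2 0.146, 60.2 and 6.39 CPM. The summed fibroblast or feeder markers had the same order of media, with medians of 11.9 CPM in 2i, 729 CPM in EpiSC and 75.0 CPM in FCS libraries. Their part in these correlations was not tested.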

How the data were processed

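RNA-seq reads of 36 libraries were aligned with GSNAP to GRCm38/mm10, per the submitters' processing notes. The deposited values are whole-number counts of reads per gene, made by the authors with featureCounts 1.5.2 against Ensembl 87 with strand setting 2 and a minimum mapping quality of 1, per the file headers. The table has 49763 lines. Of these, 92 ERCC spike-in lines, which hold 0 counts, were set aside, which left 49671 genes, 345 of them without a symbol in the annotation used for names. Library totals ran from 24490158 to 40591108 counts.

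Counts were analysed in R 4.3.3 with edgeR 4.0.16 (limma 3.58.1): genes with a minimum count of 10 were kept (23501), TMM factors were computed, and 1 quasi-likelihood model with a mean for each of the 18 groups was fitted over all libraries (18 residual degrees of freedom). Contrasts averaged lines or media with equal weight, and p-values were Benjamini-Hochberg adjusted over all genes tested, with a threshold of 0.05. Medium comparisons were made in knockout and wild-type cells separately, and knockout comparisons within each line. Pair ratios used log2(CPM + 0.5), and correlations used log2 CPM with a prior count of 2. Tables were summarised with python 3.11.15, pandas 2.3.3, numpy 2.4.6 and scipy 1.17.1 and drawn with matplotlib 3.10.9. The edgeR fit was tried on simulated counts with known changes for 1 contrast, Setd1a KO against WT on the average of media. The simulated libraries were not paired, and no other contrast or fit was simulated.

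Same-numbered KO and WT libraries of a line and medium deviated together: their replicate differences correlated at 0.401 to 0.848 over 12244 genes in all 9 pairings, so they were taken as pairs from the data, and a fit with 18 pairs as a block (9 residual degrees of freedom) was an alternative. The other alternatives were RLE size factors, no filter on low counts, fits of only the line's or genotype's libraries, DESeq2 1.42.0, and leaving out each library. The F tests of medium differences among lines were added after seeing the data.

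The 10 genes, the 9 lists of other pathway genes and the 8 lists of cell type markers were chosen with earlier results of these data known. All 10 genes are named. The rule for other pathway genes named up to 3 a list with the largest log2 change among those past the threshold, in 2i against FCS or EpiSC conditions in wild-type cells and in each knockout on the average of media, and the 5 other genes with the highest correlation. Motifs were counted in RefSeq promoter windows by exact letters on both strands.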

Additional observations from a re-analysis of the deposited data

Results flagged for a closer look

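For 5 of the 10 genes, the difference between 2 media differed among the 3 lines, by an F test with Benjamini-Hochberg adjustment over all genes (edgeR) that was added after the data had been seen. For 2i against FCS, 0.0553% of all genes passed in WT cells and 0.906% in KO cells. For EpiSC conditions against FCS, 2.89% and 2.75% did. The calls were not stable: leaving out 1 library brought the count of the 10 genes as low as 0 in each of these tests. For 2i against FCS, Spry4 passed in KO cells (adjusted p = 0.0374) and in WT cells (adjusted p = 0.0402), with the widest difference in the Setd1a line. Etv4 (adjusted p = 0.0324) and Phlda1 (adjusted p = 0.0413) passed in KO cells. In KO cells the log2 difference of Phlda1 between 2i and FCS was 1.26 in the Mll2 line, which did not pass by itself (adjusted p = 0.139), and -2.47 in the Bod1L line, which did (adjusted p = 0.00568). For EpiSC conditions against FCS, Dusp4 passed in KO cells (adjusted p = 0.0231) and in WT cells (adjusted p = 0.0184), Egr1 in KO cells (adjusted p = 0.0367) and in WT cells (adjusted p = 0.0297), and Phlda1 in WT cells (adjusted p = 0.0359), each with the largest rise in the Mll2 line. The Mll2 EpiSC libraries also had the highest mesendoderm and trophoblast marker sums of the EpiSC libraries, whose part was not tested. Each line is 1 line with 2 libraries a group, so genotype background, line and culture cannot be told apart.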

How the results depend on the processing

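No result reversed under any alternative run. With RLE size factors no count of calls moved by over 1.5 times. For KO against WT, the replicate block (pairs of same-numbered libraries) moved the counts of genes called on the average of media to 1 (Bod1L), 6 (Setd1a) and 6 (Mll2). With it 6.17%, 26% and 7.2% of all genes were called. Within media it moved the counts to 4 (2i), 2 (EpiSC) and 2 (FCS) in the Setd1a line, where 12.4%, 11.9% and 3.91% of all genes were called. In the Mll2 line it moved them to 4 (2i) and 2 (EpiSC), where 6.96% and 2.16% of all genes were called. It gave 1 for the Mll2 effect differing between media and 1 for the Bod1L minus Setd1a effect, and it changed no other KO call. Across media same-numbered libraries share only a number (correlations -0.25 to 0.41), and a replicate block there moved the count of 2i minus FCS differing between lines in WT cells to 2, that of EpiSC minus FCS in KO cells to 7 (Etv5 gained, adjusted p = 0.0262) and that of EpiSC minus FCS differing between lines in WT cells to 2 (Phlda1 lost, adjusted p = 0.0513). With no filter on low counts (39460 genes) the counts were 5 for Setd1a on average and 3 in 2i, 1 for Mll2 on average and 1 in 2i, 6 for the WT line difference, 6 in WT and 6 in KO cells for 2i minus FCS differing between lines, and 5 in KO cells for EpiSC minus FCS differing between lines. With only the 12 libraries of the line, Setd1a had 4 on average and 1 in 2i. With DESeq2 Setd1a had 5 on average, 3 in 2i and 1 in EpiSC conditions, Mll2 had 1 in 2i and 1 in EpiSC conditions, and 2i minus FCS differing between lines had 5 in WT cells. With only the 18 libraries of a genotype, 2i minus FCS differing between lines had 1 in KO and 0 in WT cells, and EpiSC minus FCS differing between lines had 1 in KO and 1 in WT cells. The cause of these moves was not tested. Leaving out 1 library at a time gave 6 to 7 genes in KO and 7 to 8 in WT cells for 2i minus FCS, 9 to 10 in KO and 9 in WT cells for 2i minus EpiSC, and 6 to 7 in KO and 5 to 7 in WT cells for EpiSC minus FCS. It gave 1 to 2 for Setd1a on average, 0 to 1 for Mll2 on average and in 2i, 1 to 5 for the WT line difference, 0 to 2 in KO and 0 to 2 in WT cells for 2i minus FCS differing between lines, and 0 to 2 in KO and 0 to 3 in WT cells for EpiSC minus FCS differing between lines. Other counts stayed at 0. Of single-gene values with 1 library left out, 2806 kept their side of the threshold, 13 gained a call and 121 lost one. Under the other alternatives 1278 kept their side, 73 gained a call and 9 lost one. Low counts limit Spry4 and Egr1 in 2i, where some libraries hold under 10 reads of the gene.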
